A study of Rattus norvegicus with 9 samples.

Results

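The genes described here are 7 regulators of mineral deposition: Mgp, Spp1, Enpp1, Ankh, Alpl, Runx2 and Phospho1. They were taken by symbol from the 17298 genes of the expression table, and all 7 were present, with gene IDs that matched the same symbols in the rat RefSeq gene table. The genes were selected on their FPKM in the 3 groups, in particular the high level of Mgp with IL-1β, so their levels and changes are a description and carry no p-value. Genes outside the 7 were tested across the whole table.

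Poly(A) RNA was sequenced from wild-type (WT) rat synovial fibroblasts, which form the connective tissue of joint linings. The tissue was digested with collagenase I and DNase I. The 3 groups had 3 libraries each: cells stimulated with the inflammatory cytokine IL-1β and then co-cultured below dermal fibroblasts held in a transwell insert (co-culture), cells given IL-1β in normal culture (IL-1β), and cells in normal culture without IL-1β (control). The labels give no dose, no time and no number of animals, no group had dermal fibroblasts without IL-1β, and nothing says whether libraries came from separate cultures, so errors and p-values cover only library-to-library spread, which may be technical. Levels are FPKM, mapped fragments scaled by transcript length and library size, given as mean ± SD over 3 libraries.

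Tissue outside bone is kept free of mineral by a balance of inhibitors and promoters. Matrix Gla protein, encoded by Mgp, is a small secreted protein that keeps cartilage and artery walls from calcifying once vitamin K-dependent carboxylation has turned some of its glutamate residues into Gla residues. Inorganic pyrophosphate blocks crystal growth: the enzyme encoded by Enpp1 makes it from ATP outside the cell, the membrane protein encoded by Ankh raises its level outside the cell, and tissue-nonspecific alkaline phosphatase, encoded by Alpl, breaks it down to phosphate. Phospho1 encodes a phosphatase that releases phosphate inside matrix vesicles, Spp1 encodes osteopontin, a phosphoprotein that binds mineral and cell-surface receptors, and Runx2 encodes the transcription factor that directs cells towards bone and hypertrophic cartilage.

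The libraries of a group were alike, with rank correlations across genes of 0.9946 to 0.9959, against 0.9584 to 0.9912 between groups, and FPKM summed to 679774 to 741810 per library. Of 14 markers of synovial fibroblasts, 12 had a mean of at least 1 FPKM, and their summed level was 11809 to 11963 FPKM in co-culture, 11238 to 11497 FPKM with IL-1β and 12823 to 13211 FPKM in control libraries. The 2 markers below that level were Gdf5 and Clic5, at means of 0.171 and 0.55 FPKM. The sums hide changes in both directions. With IL-1β 7 of the 12 passed as higher and 5 as lower than in control (limma adjusted p below 0.05). Beside these, 20.5% of all genes tested passed as higher and 31.2% as lower. Vim stood at 4342 ± 58.8, 2114 ± 2.73 and 4902 ± 52.7 FPKM in co-culture, IL-1β and control libraries. Dcn stood at 1196 ± 9.64, 3112 ± 110 and 641 ± 4.57 FPKM in the same order. The 6 endothelial markers summed to 0.62 to 0.71, 0.85 to 1.26 and 0.66 to 0.8 FPKM in co-culture, IL-1β and control libraries, and the 3 of 6 keratinocyte markers in the table to 1.7 to 2.17, 1.1 to 1.46 and 1.23 to 1.54 FPKM.

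Mgp was by far the most abundant of the 7 and the gene that differed most between groups. The 3 co-culture libraries held 2981, 2889 and 2783 FPKM, the others standing at 11684, 11592 and 11063 FPKM in the IL-1β libraries and at 1079.8, 1082 and 1112 FPKM in the control libraries. The groups did not overlap, IL-1β being highest, co-culture intermediate and control lowest. The mean of 11446 ± 335 FPKM with IL-1β was 10.5 times the control mean of 1091 ± 18.1 FPKM, a log2 change of 3.39 ± 0.04 on the log2(FPKM + 1) scale (error: SE of the fit, as for every log2 change below). In co-culture the mean was 2884 ± 98.9 FPKM, which was 0.252 times the IL-1β mean (log2 change -1.99 ± 0.04) and 2.64 times the control mean (log2 change 1.40 ± 0.04). In bulk RNA, fewer cells of a type and less RNA per cell cannot be told apart, here and in what follows.

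Mgp ranked 17th to 21st among all genes in the co-culture libraries, first in the IL-1β libraries and 113th to 116th in the control libraries. It took 0.393% to 0.41% of the FPKM sum in co-culture, 1.49% to 1.63% with IL-1β and 0.159% to 0.16% in control. Its gain of 10355 FPKM between the IL-1β and control means exceeded that of every other gene, the next being the chemokine gene Ccl2 at 5648 FPKM. By log2 change, 41 genes, Mgp included, had a change at least as high, and 4 of them had a control mean of at least 100 FPKM. Chondrocytes and smooth muscle cells are known to make matrix Gla protein. The 10 chondrocyte markers summed to 85.7 to 88.5 FPKM in co-culture, 26.5 to 29 FPKM with IL-1β and 204 to 218 FPKM in control, and 7 of them reached a mean of 1 FPKM. Col2a1, the type II collagen gene, made up most of the sum, at 56.4 ± 1.14 FPKM in co-culture, 18.1 ± 1.4 FPKM with IL-1β and 157 ± 6.39 FPKM in control, and Acan, the aggrecan gene, stood at 13.3 ± 0.77, 2.22 ± 0.03 and 24.1 ± 0.81 FPKM in the same order. Comp, Hapln1 and Sox9 had means of 6.56, 5.28 and 3.56 FPKM over the 9 libraries, whereas Matn1 and Col10a1 were near 0, at 0.0044 and 0.038 FPKM. The 6 of 7 pericyte and smooth muscle markers in the table summed to 24.5 to 26.1, 11.2 to 13.6 and 26.7 to 27.9 FPKM in the same order, with Kcnj8 at a mean of 0.06 FPKM. Des contributed most to the lower sum with IL-1β, at 13 ± 0.28, 3.55 ± 0.33 and 14.4 ± 0.76 FPKM in that order. Myh11 differed little between IL-1β and control, at 1.55 ± 0.07, 1.28 ± 0.16 and 1.33 ± 0.18 FPKM. Both sums were lowest in the IL-1β libraries, where Mgp was highest. The other 6 genes were lowest there too, and the part of these markers in those differences was not tested.

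**Figure D1:**
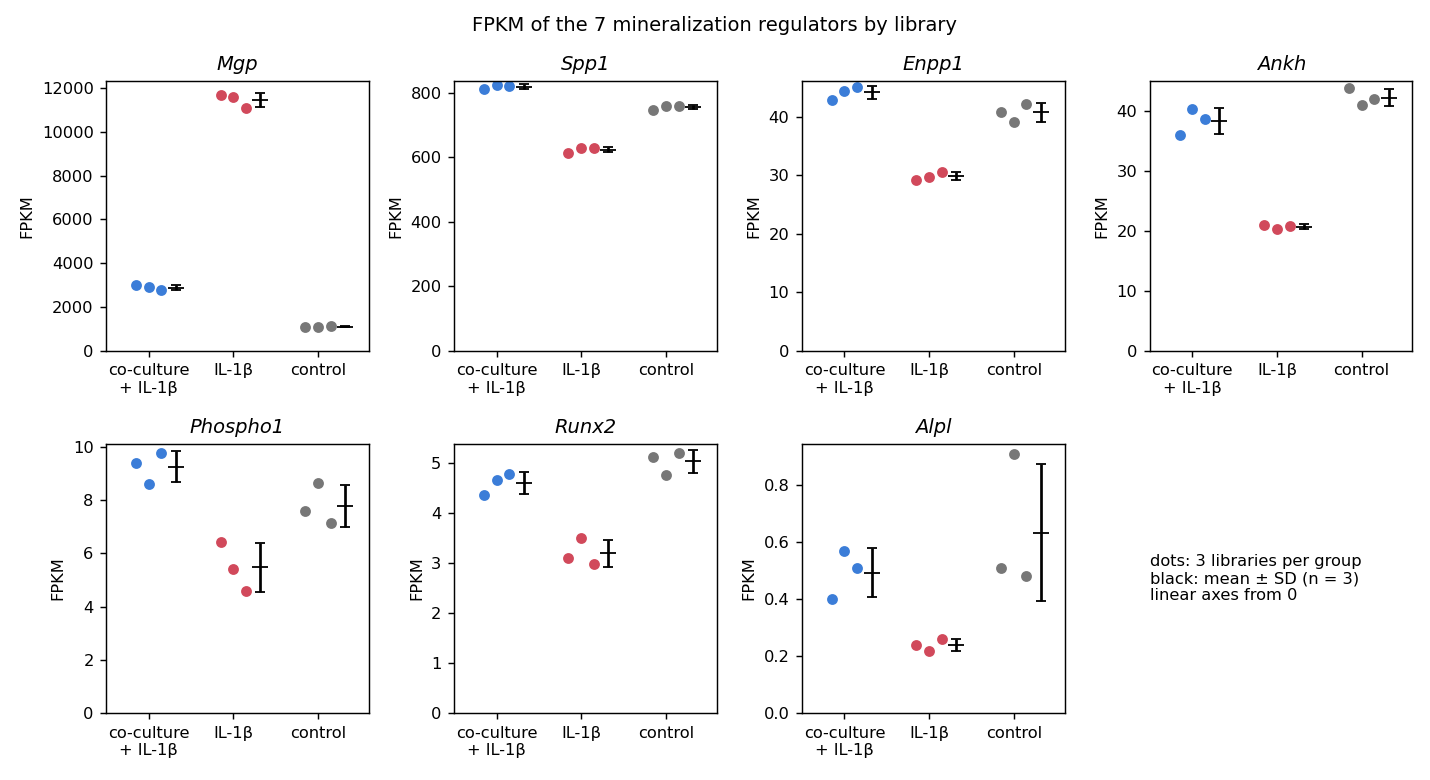
FPKM of the 7 genes in each library (dots) with the mean and SD of 3 libraries (black), for co-culture with IL-1β, IL-1β alone and control, on linear axes that start at 0. Mgp was highest with IL-1β, at 11063 to 11684 FPKM, whereas each of the other 6 genes was lowest there.

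The other 6 genes were each lowest in the IL-1β libraries. Against control, 7 of the 7 did not overlap between groups, 1 higher and 6 lower with IL-1β, where 58.3% of the 11372 genes tested did not overlap (23.3% higher and 35% lower). Between co-culture and IL-1β 7 of the 7 did not overlap either, 6 higher and 1 lower in co-culture, beside 56.7% of all genes (37.3% higher and 19.5% lower). A mean of at least 1 FPKM over the 9 libraries was required for the fit, which 6 of the 7 met and Alpl did not. All 6 passed the threshold of adjusted p below 0.05 in limma for IL-1β against control, beside 51.7% of all genes tested (20.5% higher and 31.2% lower). All 6 also passed for co-culture against IL-1β, beside 50% of all genes (33.3% higher and 16.7% lower). After median-of-ratios scaling the split of all genes was more even, 2961 higher and 2799 lower in place of 2330 and 3544 for IL-1β against control, and 2702 and 2655 in place of 3786 and 1901 for co-culture against IL-1β, and the 6 genes kept their directions and calls. Since these contrasts share the IL-1β libraries and the genes were chosen with the values known, nothing is read from these counts.

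**Figure D2:**
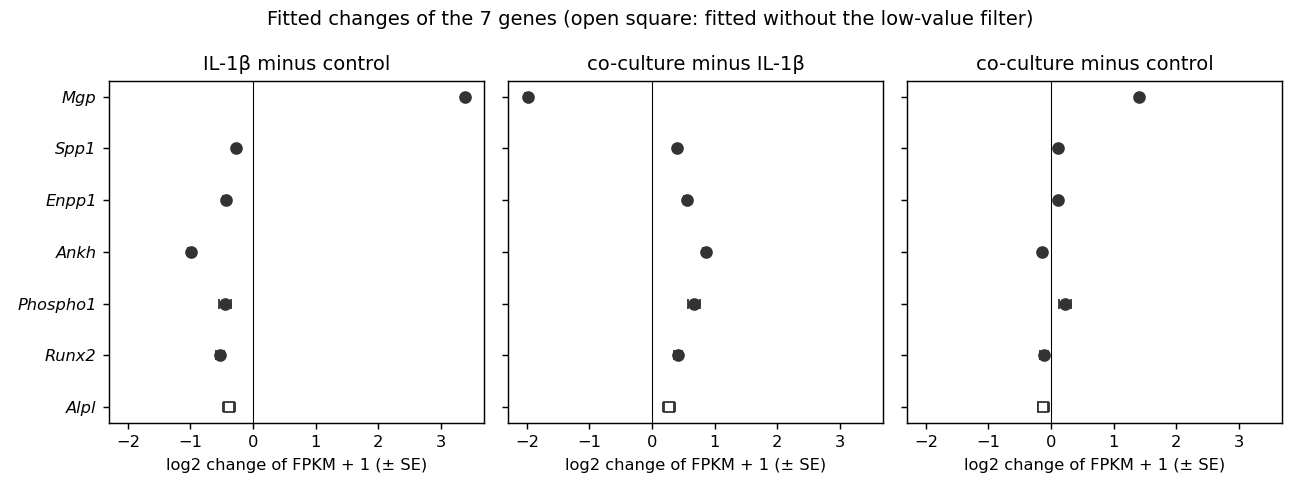
Fitted log2 changes of FPKM + 1 with their SE for the 7 genes in the 3 contrasts, with Alpl, an open square, from a fit without the filter on low values. Mgp lies at 3.39, -1.99 and 1.40, and the other 6 lie below 0 for IL-1β minus control, above 0 for co-culture minus IL-1β, and between -0.14 and 0.23 for co-culture minus control.

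Spp1, the osteopontin gene, was second in level. It stood at 809, 824 and 819.7 FPKM in co-culture, at 613, 628 and 628 FPKM with IL-1β and at 747, 758 and 759.6 FPKM in control. Each group was separate from the next, with co-culture highest and IL-1β lowest, although the differences were small. The mean was 818 ± 7.41 FPKM in co-culture, 623 ± 8.34 FPKM with IL-1β and 755 ± 7 FPKM in control, so that IL-1β was 0.825 times control (log2 change -0.28 ± 0.03), co-culture 1.31 times IL-1β (0.39 ± 0.03) and co-culture 1.08 times control (0.12 ± 0.03). The last difference depended on scaling and turned to -0.018 on the log2 scale after quantile normalization. Macrophages are a known source of osteopontin. The 11 macrophage and leukocyte markers summed to 29.8 to 31.9 FPKM in co-culture, 40.4 to 45.1 FPKM with IL-1β and 29.1 to 31.1 FPKM in control, and 4 of them reached a mean of 1 FPKM. Cd14, which encodes a lipopolysaccharide co-receptor, contributed most, at 15.8 ± 0.3 FPKM in co-culture, 22.7 ± 0.82 FPKM with IL-1β and 13.5 ± 0.59 FPKM in control, and Cd68 stood at 2.19 ± 0.44, 4.77 ± 0.88 and 2.3 ± 0.45 FPKM in the same order. Lyz2, a lysozyme gene, stood at 7.76 ± 0.76 FPKM in co-culture, 7.99 ± 0.4 FPKM with IL-1β and 10.6 ± 0.9 FPKM in control, while Ptprc, the pan-leukocyte gene, had a mean of 0.081 FPKM and Csf1r one of 0.336 FPKM. Lyz2, Ptprc and Csf1r had lower means with IL-1β than in control. The remaining markers, Adgre1, Mrc1, Tyrobp, Aif1, Itgam and Cd163, had higher means with IL-1β than in control. Adgre1 stood at 1.22 against 0.49 FPKM, Mrc1 at 1.54 against 0.65 FPKM and Cd163 at 0.47 against 0.033 FPKM. All of these but Tyrobp had a mean under 1 FPKM over the 9 libraries. The part of these markers in the differences of Spp1 was not tested.

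Receptors of osteopontin differed among themselves. Of 9 genes, all tested, 5 were higher and 3 lower with IL-1β than in control (beside 20.5% higher and 31.2% lower of all genes), and 3 were higher and 4 lower in co-culture than with IL-1β (beside 33.3% higher and 16.7% lower of all genes). The 5 include Itga5, named after its values were seen, whose small change (log2 change 0.091, limma adjusted p = 0.0278) lost its call under 6 alternatives. The hyaluronan and osteopontin receptor gene Cd44 stood at 150 ± 1.38 FPKM in co-culture, 288 ± 2.72 FPKM with IL-1β and 136 ± 1.31 FPKM in control. It rose with IL-1β by 1.08 ± 0.02 on the log2 scale (limma adjusted p = 1.1e-11) and was lower in co-culture than with IL-1β by a log2 change of -0.93 ± 0.02 (limma adjusted p = 7.5e-11). The integrin gene Itga8 rose with IL-1β, to 9.28 ± 0.33 FPKM against 4.21 ± 0.12 FPKM in control, and Itgb3 rose to 4.20 ± 0.56 FPKM against 2.54 ± 0.22 FPKM (limma adjusted p = 1.1e-08 and 0.00019). Itga9, Itgb5 and Itga4 fell with IL-1β, with log2 changes of -0.91 ± 0.06, -0.60 ± 0.03 and -0.59 ± 0.09 (limma adjusted p = 2.7e-07, 1.5e-08 and 0.00013). The most abundant, Itgb1, stood at 548 ± 10.4 FPKM in co-culture, 544 ± 18.1 FPKM with IL-1β and 565 ± 9.69 FPKM in control. It passed in neither contrast (limma adjusted p = 0.83 for co-culture against IL-1β and 0.17 for IL-1β against control), although it passed as lower with IL-1β than in control after quantile normalization.

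Enpp1 and Ankh, the genes of pyrophosphate supply, were at like levels. Enpp1 stood at 43, 44.5 and 45.2 FPKM in co-culture, at 29.2, 29.7 and 30.5 FPKM with IL-1β and at 40.8, 39.2 and 42.3 FPKM in control. Ankh stood at 36.1, 40.3 and 38.6 FPKM in co-culture, at 21, 20.3 and 20.9 FPKM with IL-1β and at 43.8, 41 and 42 FPKM in control. For both, the IL-1β libraries lay well below the others, while co-culture lay just above control for Enpp1 and just below control for Ankh. The Ankh mean with IL-1β was 0.49 times control (log2 change -0.99 ± 0.04), and that of Enpp1 0.732 times control (-0.44 ± 0.04). In co-culture Ankh was at 1.85 times and Enpp1 at 1.48 times the IL-1β mean (log2 changes 0.86 ± 0.04 and 0.55 ± 0.04).

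Among the other genes of pyrophosphate, phosphate and adenosine handling, 6 of 10 were tested. With IL-1β 3 were higher and 2 lower than in control (beside 20.5% higher and 31.2% lower of all genes), and in co-culture 1 was higher and 4 lower than with IL-1β (beside 33.3% higher and 16.7% lower of all genes). These counts include Xpr1, a phosphate exporter gene named after its values were seen, whose calls were lost under 9 alternatives for IL-1β against control and under 6 for co-culture against IL-1β. Slc20a1, a sodium-phosphate importer gene, stood at 88.2, 89.5 and 92.6 FPKM in co-culture, at 169.9, 173 and 176 FPKM with IL-1β and at 75.6, 75 and 78.1 FPKM in control. It rose with IL-1β by 1.17 ± 0.03 on the log2 scale (limma adjusted p = 3.1e-11) and was lower in co-culture than with IL-1β (log2 change -0.93 ± 0.03, limma adjusted p = 4.4e-10), opposite to Ankh and Enpp1 in both. Enpp3, which encodes a relative of the Enpp1 enzyme, moved as Enpp1 did but less, at 56.5 ± 1.28 FPKM in co-culture, 46.5 ± 1.22 FPKM with IL-1β and 56.5 ± 0.73 FPKM in control (limma adjusted p = 2.8e-05 for co-culture against IL-1β and 2.1e-05 for IL-1β against control). Nt5e, which encodes the ecto-nucleotidase CD73 and is named after its values were seen, was lower with IL-1β than in control, at 18.3 ± 0.1 FPKM against 23.8 ± 0.38 FPKM (limma adjusted p = 3.3e-06), and stood at 17.1 ± 0.16 FPKM in co-culture, where its call as lower than with IL-1β was lost under 10 alternatives. 

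The phosphatase genes were low. Phospho1 stood at 9.38, 8.61 and 9.77 FPKM in co-culture, at 6.41, 5.42 and 4.59 FPKM with IL-1β and at 7.58, 8.63 and 7.12 FPKM in control. The IL-1β libraries were all below the control libraries, at 0.704 times their mean (log2 change -0.45 ± 0.1), and co-culture was at 1.69 times the IL-1β mean (0.67 ± 0.1). Alpl stood at 0.4, 0.57 and 0.51 FPKM in co-culture, at 0.24, 0.22 and 0.26 FPKM with IL-1β and at 0.51, 0.91 and 0.48 FPKM in control. The IL-1β libraries were the 3 lowest, and co-culture and control overlapped. At these levels the number of reads behind each Alpl value is unknown, and no fold is given. Annexin genes, whose products are found in matrix vesicles, were far more abundant. Anxa2 stood at 2003 ± 33.1 FPKM in co-culture, 1609 ± 23.8 FPKM with IL-1β and 2110 ± 30.5 FPKM in control, falling with IL-1β (limma adjusted p = 3.5e-07) and higher in co-culture than with IL-1β (limma adjusted p = 3.4e-06). Of the 3 annexins tested, 2 fell with IL-1β, beside 31.2% of all genes, and Anxa5, at 346 ± 7.86 FPKM with IL-1β against 352 ± 14 FPKM in control, did not pass (limma adjusted p = 0.66). After quantile normalization Anxa5 passed in this contrast.

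Runx2 stood at 4.35, 4.65 and 4.78 FPKM in co-culture, at 3.1, 3.5 and 2.98 FPKM with IL-1β and at 5.12, 4.76 and 5.2 FPKM in control. The IL-1β libraries were the 3 lowest, at 0.635 times the control mean (log2 change -0.52 ± 0.06), co-culture was at 1.44 times the IL-1β mean (0.42 ± 0.06), and co-culture and control overlapped. Mmp13, a collagenase gene that Runx2 is known to activate, stood at 71.6 ± 0.49 FPKM in co-culture, 780 ± 33 FPKM with IL-1β and 73.2 ± 0.65 FPKM in control. Whether Mmp13 depended on Runx2 in these cells was not tested. Markers of osteoblasts and osteocytes were low. Of 8, 7 were in the table and 1, Dlx3, reached a mean of 1 FPKM, and the sum was 6.04 to 6.4 FPKM in co-culture, 2.25 to 2.77 FPKM with IL-1β and 6.49 to 7.14 FPKM in control. Bglap, the osteocalcin gene, had a mean of 0.164 FPKM, Ibsp 0.244 FPKM and Sp7, the osterix gene, 0.552 FPKM. Of the osteoclast markers 4 of 7 were in the table, with sums of 60.9 to 64.5 FPKM in co-culture, 55.8 to 60.7 FPKM with IL-1β and 61.2 to 65.5 FPKM in control, most of it Ctsk, the cathepsin K gene, at 56.9 ± 1.82 FPKM in co-culture, 52.6 ± 2.64 FPKM with IL-1β and 58.1 ± 1.9 FPKM in control. The other 3, Acp5, Oscar and Atp6v0d2, had higher means with IL-1β than in control, and that of Acp5 did not pass (4.9 ± 0.6 against 4.58 ± 0.5 FPKM, limma adjusted p = 0.448), the others being under 1 FPKM and not tested. The part of these markers in the difference of Runx2 was not tested.

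Promoter sequence was read for genes that were lower with IL-1β and higher in co-culture. RefSeq entries of build GRCr8 were present for 5 of the 7 genes, Spp1, Ankh, Alpl, Runx2 and Phospho1. The 250 bases before the start were searched on both strands for 5 motifs: AP-1 (TGANTCA), C/EBP (TTGCNNCAA), Runx (TGTGGT), the TATA box (TATAAA) and the NF-kB consensus. The 3 genes whose window held a match are shown with Ankh, the gene with the lowest ratio of IL-1β to control among those fitted, and capitals mark the matches.
Spp1, chr14:5619805-5620054, minus strand: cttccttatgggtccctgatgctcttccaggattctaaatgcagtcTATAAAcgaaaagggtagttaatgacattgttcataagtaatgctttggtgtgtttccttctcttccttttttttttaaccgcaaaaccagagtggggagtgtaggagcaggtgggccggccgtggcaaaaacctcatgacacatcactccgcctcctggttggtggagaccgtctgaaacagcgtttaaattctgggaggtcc
Runx2, chr9:23664808-23665057, plus strand: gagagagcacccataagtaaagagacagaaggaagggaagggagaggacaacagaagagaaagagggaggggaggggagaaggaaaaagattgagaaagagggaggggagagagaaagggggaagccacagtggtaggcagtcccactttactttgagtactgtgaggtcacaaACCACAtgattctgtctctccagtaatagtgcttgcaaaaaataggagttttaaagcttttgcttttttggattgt
Phospho1, chr10:81258560-81258809, plus strand: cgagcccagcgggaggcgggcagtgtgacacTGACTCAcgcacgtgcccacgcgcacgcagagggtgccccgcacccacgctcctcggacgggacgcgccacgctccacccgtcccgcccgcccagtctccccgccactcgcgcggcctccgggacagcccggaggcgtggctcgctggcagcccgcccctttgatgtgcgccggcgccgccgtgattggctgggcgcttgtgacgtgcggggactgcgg
Ankh, chr2:79883201-79883450, plus strand: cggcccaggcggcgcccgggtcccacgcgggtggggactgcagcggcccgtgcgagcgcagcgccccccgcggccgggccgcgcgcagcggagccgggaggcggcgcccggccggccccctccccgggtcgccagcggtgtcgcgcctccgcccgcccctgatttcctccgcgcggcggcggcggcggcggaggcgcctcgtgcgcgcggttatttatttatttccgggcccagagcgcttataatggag

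The match in the Spp1 window was the letters TATAAA at -204 to -199, that in Runx2 a Runx motif on the minus strand at -76 to -71, counted back from the start, and that in Phospho1 an AP-1 motif at -219 to -213. The search took TATAAA at any position in the window, so a match need not be a TATA box. Of 33469 rat promoter windows of the same length, 12.9% held TATAAA, 14.5% a Runx motif and 6.34% an AP-1 motif, 6.33% the NF-kB consensus and 1.75% a C/EBP motif. The windows of Ankh and Alpl and that of the other of 2 Runx2 starts held none of the 5. The Ankh and Phospho1 windows were rich in G and C, at 79.2% and 76%, against 46.8% in Spp1 and 45.6% in the Runx2 window shown. A match is a description of letters in a window and no evidence of binding.

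Beyond the 7, 65 genes of mineral control were listed by role, of which 62 were in the table and 45 were tested. For IL-1β against control 37 of the 45 passed, 16 higher and 21 lower (82.2%, beside 51.7% of all genes), with a median absolute log2 change of 0.391 beside 0.157 for all genes. For co-culture against IL-1β 33 passed, 18 higher and 15 lower (73.3%, beside 50% of all genes), with a median absolute log2 change of 0.288 beside 0.15. This balance depended on scaling, with 15 higher and 18 lower after median-of-ratios scaling and 16 higher and 16 lower after quantile normalization. The list was drawn up with earlier results of these data known. The 45 include Fam20a and Prrg2, which met the filter on low values only through their level with IL-1β. Of these Fam20a passed as higher with IL-1β, and Prrg2 did not pass. A filter of 5 FPKM leaves both out. With it 30 of 35 passed for IL-1β against control, 14 higher and 16 lower (beside 4839 of 8795 genes). For co-culture against IL-1β 25 of 35 passed, 12 higher and 13 lower (beside 4817 of 8795 genes). The larger changes lay in both directions. By at least 0.5 on the log2 scale, 9 genes, Fam20a among them, were higher and 11 lower for IL-1β against control. For co-culture against IL-1β 8 were higher, Vkorc1l1 among them, and 8 lower, Fam20a among them. Since Fam20a met the filter only through its level with IL-1β, nothing is read from its direction. The call of Vkorc1l1, described below, was lost under several alternatives. The share of all genes at this cut-off was not counted, so whether these counts are unusual was not tested.

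**Figure D3:**
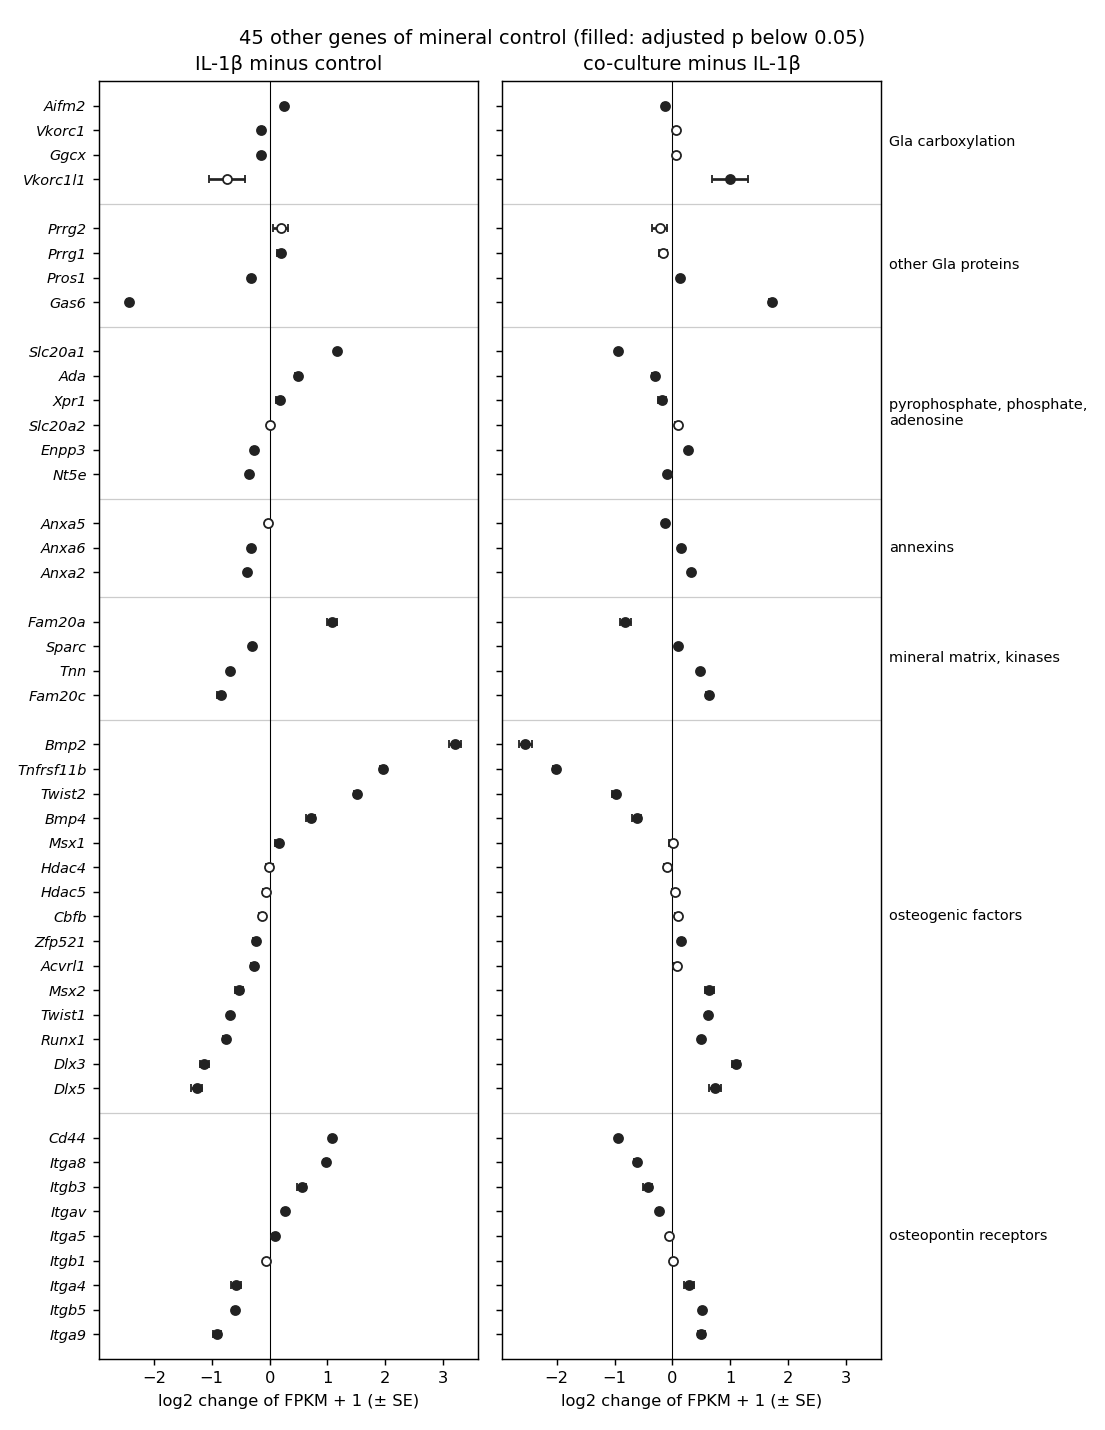
Log2 changes of FPKM + 1 with their SE for the 45 tested genes in 7 role groups, for IL-1β minus control and co-culture minus IL-1β (filled: limma adjusted p below 0.05). Bmp2 is farthest right for IL-1β minus control, at 3.20, and Gas6 farthest left, at -2.43, and each lies on the other side of 0 in co-culture minus IL-1β.

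Of the 4 genes of the machinery that makes Gla residues, 1 was higher and 2 lower with IL-1β than in control (beside 20.5% higher and 31.2% lower of all genes), and 1 was higher and 1 lower in co-culture than with IL-1β (beside 33.3% higher and 16.7% lower of all genes). Aifm2, which encodes an oxidoreductase that reduces vitamin K and is named after its values were seen, stood at 40.9 ± 1.43 FPKM in co-culture, 44.8 ± 0.65 FPKM with IL-1β and 37.4 ± 1.19 FPKM in control. It rose with IL-1β (log2 change 0.25 ± 0.04, limma adjusted p = 0.000121) and was lower in co-culture than with IL-1β (-0.13 ± 0.04, limma adjusted p = 0.0122). Vkorc1, the vitamin K reductase gene, stood at 72.1 ± 1.5 FPKM in co-culture, 69.2 ± 2.27 FPKM with IL-1β and 76.5 ± 4.03 FPKM in control, and Ggcx, the gamma-carboxylase gene, at 44.6 ± 0.45, 42.6 ± 1.3 and 47.2 ± 1.18 FPKM in the same order. For IL-1β against control both passed with small log2 changes, -0.14 ± 0.04 for Vkorc1 and -0.14 ± 0.03 for Ggcx (limma adjusted p = 0.013 and 0.0038), and the call of Vkorc1 was lost after median-of-ratios scaling (log2 change -0.091, adjusted p = 0.098) and without control replicate 1 (-0.11, adjusted p = 0.059). Vkorc1l1, its paralog, stood at 4.15, 4.66 and 5.38 FPKM in co-culture, at 3.76, 1.63 and 0.89 FPKM with IL-1β and at 3.72, 3.81 and 3.81 FPKM in control, so the IL-1β libraries were spread widely. It passed for co-culture against IL-1β (log2 change 0.99 ± 0.3, limma adjusted p = 0.031), but without any 1 of the 3 control or 3 co-culture libraries, or without IL-1β replicate 2, the adjusted p was 0.051 to 0.089 with log2 changes of 0.91 to 1.07.

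Among genes of other Gla proteins, 4 of 8 were tested, and Gas6 differed most. Gas6, which encodes a ligand of the TAM receptor kinases, stood at 113, 117 and 110.2 FPKM in co-culture, at 35.1, 32.4 and 34.3 FPKM with IL-1β and at 189, 189 and 183 FPKM in control. It fell with IL-1β to 0.181 times the control mean (log2 change -2.43 ± 0.04, limma adjusted p = 2.05e-13) and was 3.34 times the IL-1β mean in co-culture (1.71 ± 0.04, limma adjusted p = 1.1e-11), a direction opposite to that of Mgp in both. Pros1, the protein S gene, stood at 31 ± 1.22 FPKM in co-culture, 28.2 ± 0.94 FPKM with IL-1β and 35.4 ± 0.93 FPKM in control, and fell with IL-1β (limma adjusted p = 4.1e-05).

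Of 12 genes of mineral matrix proteins and their kinases 4 were tested, of which 1, Fam20a, met the filter on low values only through its level with IL-1β. The other 3, Sparc, Tnn and Fam20c, were lower with IL-1β than in control (beside 31.2% of all genes) and higher in co-culture than with IL-1β (beside 33.3%). Fam20c, which encodes the kinase that phosphorylates osteopontin and related proteins, stood at 21.8, 21.9 and 22 FPKM in co-culture, at 15, 13.9 and 12.7 FPKM with IL-1β and at 25.7, 26.5 and 24.8 FPKM in control. It fell with IL-1β (log2 change -0.85 ± 0.05, limma adjusted p = 9.7e-08) and was higher in co-culture than with IL-1β (0.63 ± 0.05, limma adjusted p = 2.2e-06). Fam20a, which encodes a pseudokinase partner of that enzyme, went the other way, at 0.78 ± 0.08 FPKM in co-culture, 2.14 ± 0.18 FPKM with IL-1β and 0.49 ± 0.14 FPKM in control. Sparc, the osteonectin gene, stood at 2107 ± 13.4 FPKM in co-culture, 1970 ± 26.5 FPKM with IL-1β and 2445 ± 20.6 FPKM in control, and Tnn, the tenascin N gene, at 315 ± 5.65, 225 ± 3.28 and 364 ± 2.81 FPKM in the same order. Both fell with IL-1β (limma adjusted p = 1.51e-06 and 1.15e-09), and the higher level of Sparc in co-culture than with IL-1β was no longer past the threshold after median-of-ratios scaling (log2 change 0.029, adjusted p = 0.38).

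Osteogenic signals and transcription factors came next. Of 15 tested genes 5 were higher and 7 lower with IL-1β than in control (beside 20.5% higher and 31.2% lower of all genes), and 6 were higher and 4 lower in co-culture than with IL-1β (beside 33.3% higher and 16.7% lower of all genes). The 5 include Msx1, a homeobox gene named after its values were seen, whose call (log2 change 0.16, limma adjusted p = 0.0431) was lost under 7 alternatives. Bmp2, a bone-inducing growth factor gene, stood at 2.94, 2.17 and 3.21 FPKM in co-culture, at 23.2, 19.5 and 19.9 FPKM with IL-1β and at 1.48, 1.46 and 1.18 FPKM in control. It rose with IL-1β (log2 change 3.20 ± 0.11, limma adjusted p = 3.65e-10) and was lower in co-culture than with IL-1β (-2.54 ± 0.11, limma adjusted p = 4.9e-09). Tnfrsf11b, the osteoprotegerin gene, stood at 4.67 ± 0.2 FPKM in co-culture, 22 ± 0.67 FPKM with IL-1β and 4.90 ± 0.17 FPKM in control, and Bmp4 at 4.52 ± 0.46, 7.46 ± 0.54 and 4.18 ± 0.29 FPKM in the same order. Both rose with IL-1β (limma adjusted p = 1.9e-11 and 9.5e-06).

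Among transcription factor genes, Twist1 and Twist2, which encode inhibitors of Runx2, moved in opposite directions. Twist2 stood at 45.9, 45.2 and 38.7 FPKM in co-culture, at 85.9, 89.5 and 82.5 FPKM with IL-1β and at 29, 29 and 30.5 FPKM in control, and rose with IL-1β (log2 change 1.51 ± 0.06, limma adjusted p = 1.4e-09). Twist1 fell with IL-1β, to 49.5 ± 0.89 FPKM against 80.1 ± 3.26 FPKM in control, and stood at 76.6 ± 3.8 FPKM in co-culture (log2 change -0.68 ± 0.04 for IL-1β against control, limma adjusted p = 7e-08). The homeobox genes Dlx5, Dlx3 and Msx2 and the Runx2 relative Runx1 fell with IL-1β, with log2 changes of -1.26 ± 0.1, -1.13 ± 0.07, -0.53 ± 0.08 and -0.76 ± 0.04 (limma adjusted p = 8.4e-07, 1.4e-07, 0.00011 and 1.8e-08). All 4 were higher in co-culture than with IL-1β (limma adjusted p = 0.000105 for Dlx5, 3e-07 for Dlx3, 3.1e-05 for Msx2 and 1.3e-06 for Runx1). Cbfb, which encodes the DNA-binding partner of the Runx proteins, stood at 59.1 ± 3.57 FPKM in co-culture, 55 ± 3.65 FPKM with IL-1β and 60.3 ± 1.43 FPKM in control. It passed in neither contrast (limma adjusted p = 0.14 for co-culture against IL-1β and 0.057 for IL-1β against control). Under some alternatives it did pass as lower with IL-1β than in control, among them quantile normalization and the fit with the library number as a block. Without IL-1β replicate 3 or co-culture replicate 2 it also passed as higher in co-culture than with IL-1β.

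Co-culture was last set against control, which asks how far the genes stood from untreated cells after IL-1β followed by co-culture. This contrast shares its libraries with the other contrasts. Mgp remained apart, at 2.64 times control. Spp1 was at 1.08, Enpp1 at 1.08, Ankh at 0.907, Phospho1 at 1.19 and Runx2 at 0.914 times control, and for Phospho1, Runx2 and Alpl the libraries overlapped. The other 4 of the 7 did not overlap, 3 higher and 1 lower in co-culture, beside 37.8% of all genes (22.1% higher and 15.6% lower). Of the 6 genes in the fit 3 passed, 2 higher and 1 lower, beside 20.3% of all genes tested (12.4% higher and 7.91% lower). The count was 2 of 7 without the filter on low values and 4 of 5 with a filter of 5 FPKM, and nothing is read from it. After quantile normalization the log2 change of Spp1 was -0.018, and the split of all genes was 1008 higher and 1166 lower in place of 1408 and 899. Over the 9 fits that left out 1 library, the log2 change of Ankh, -0.14 ± 0.04 with all, stayed between -0.18 and -0.097. That of Enpp1 lay between 0.087 and 0.14. Of the 45 other genes of mineral control 20 passed, 7 higher and 13 lower (44.4%). Of these 4 differed by at least 0.5 on the log2 scale, a cut-off at which the share of all genes was not counted. Bmp2 and Twist2 were higher in co-culture than in control (0.66 ± 0.11 and 0.53 ± 0.06, limma adjusted p = 0.0011 and 7.4e-05). Gas6 and Dlx5 were lower (-0.72 ± 0.04 and -0.53 ± 0.1, limma adjusted p = 1.1e-07 and 0.0034).

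The genes most like Mgp and Spp1 over the 9 libraries were found by the root mean square difference of log2(FPKM + 1) after subtracting each gene's mean. For Mgp the nearest of the genes with a mean of at least 1 FPKM was Chi3l1, which encodes a secreted chitinase-like glycoprotein, at a difference of 0.063. It was followed by the complement gene Cfb at 0.091, the guidance cue gene Ntn1 at 0.134 and the chemokine gene Cxcl16 at 0.149. Chi3l1 stood at 43.5 ± 0.77 FPKM in co-culture, 168 ± 0.97 FPKM with IL-1β and 16.3 ± 0.79 FPKM in control. For Spp1, whose whole span was 0.42 on the log2 scale against 3.43 for Mgp, the nearest were the chaperone gene Hsp90ab1 at 0.019, the replication gene Gins2 at 0.024, the tubulin gene Tubb5 at 0.025 and the co-chaperone gene Fkbp5 at 0.025. Among the other regulators, Spp1 and Enpp1 were nearest to each other, at 0.082.

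**Figure D4:**
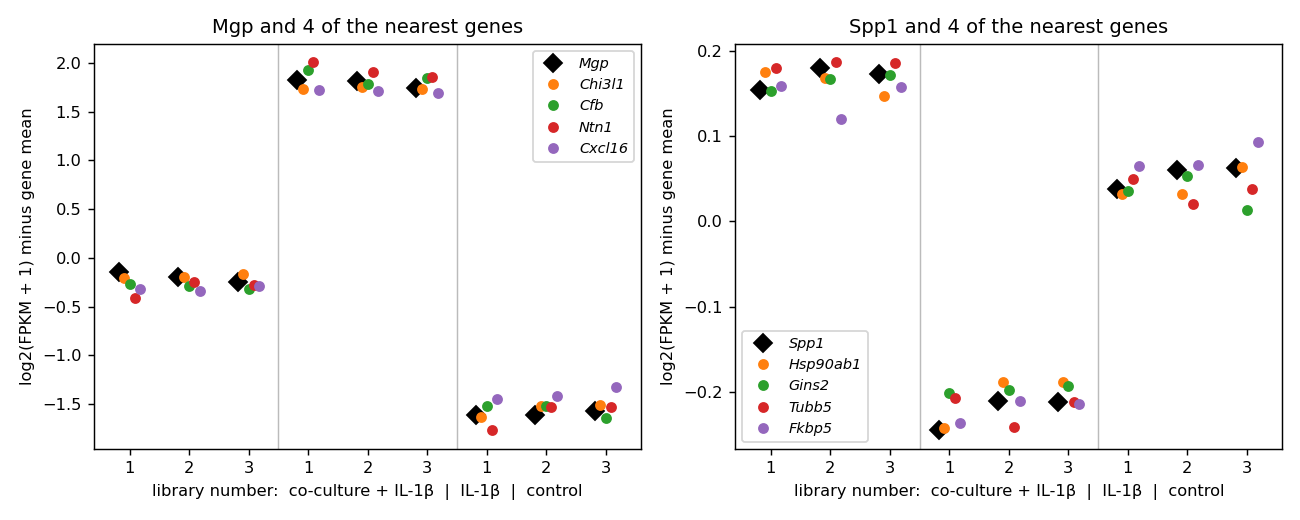
Log2(FPKM + 1) minus the gene's mean over 9 libraries for Mgp and 4 of the genes nearest to it (left) and Spp1 and 4 of the genes nearest to it (right), with libraries 1 to 3 of co-culture with IL-1β, IL-1β alone and control. All 5 genes on the left are highest with IL-1β and lowest in control, and all 5 on the right are highest in co-culture and lowest with IL-1β, within a span of about 0.42 for Spp1.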

How the data were processed

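The authors deposited 1 table of FPKM with 2 decimals for 9 libraries, per the file headers. The submitters' processing notes name the build GRCm38, a mouse build, although 16152 of the 17298 gene IDs were found in the rat RefSeq table of GRCr8. Aligner, quantifier and annotation: not given in the sources used here. Comparing a level between genes is therefore less secure than comparing 1 gene between libraries. The depth is unknown. Of 905 low genes examined for steps of whole reads across the 9 libraries, 0 showed them (tolerance 0.05 of a step). This search cannot decide the depth, because scaling by library size makes 1 read a different step in each library.

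Genes with a mean of at least 1 FPKM over the 9 libraries (11372) were fitted as log2(FPKM + 1) in R 4.3.3 by limma 3.58.1 over all 9 libraries, using a coefficient for each group and trended, robust empirical Bayes, two-sided p-values and Benjamini-Hochberg adjustment over all genes (threshold 0.05). Log2 changes understate those of low genes, and ratios are of mean FPKM. The fit was checked on simulated data. The 17 alternatives changed the pseudocount, filter, scaling, variance model, libraries or block. The genes and lists were chosen with earlier results of these data known. Genes outside the 7 were named where they passed with a log2 change of at least 0.5, were among the 2 most abundant of their list, or were among the 4 nearest to Mgp or Spp1 (the rule also covered a further gene for each, not reported here), with Mmp13 as a known Runx2 target. Nt5e, Aifm2, Itga5, Xpr1, Msx1 and Prrg2 fall outside this rule and were named after their values were seen, and marker genes were named to show what carried a sum. No group had a label of batch or date.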

Additional observations from a re-analysis of the deposited data

How the results depend on the processing

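Over 17 alternatives (16 for Runx2), 288 of 303 values of the 6 genes in the fit moved by less than the SD between libraries, and 14 moved by more with the same direction. The 1 that reversed was Spp1 in co-culture against control, at -0.018 on the log2 scale after quantile normalization in place of 0.12. Alpl was not examined in this way. Mgp kept its direction in all 3 contrasts under every alternative, its log2 change for IL-1β against control lying between 2.86 (quantile normalization) and 3.44 (median-of-ratios scaling). Leaving out 1 library in turn gave 5243 to 5809 genes past the threshold for IL-1β against control (5874 with all), 5014 to 5660 for co-culture against IL-1β (5687) and 1662 to 2309 for co-culture against control (2307). Of the 90 calls of the 45 other genes, 71 were kept under every alternative that gave a value.

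The titles number the libraries 1 to 3 in each group, but nothing says that a number marks a shared source. Deviations of same-numbered libraries correlated at -0.046 to 0.189 across genes, above 0.1 in 1 of 9 pairs. Those of libraries with different numbers correlated at -0.221 to 0.133, above 0.1 in 1 of 18 pairs. Of the 9 libraries 3 correlated best with their own number in both other groups. Whether a number marks a shared source is not settled by these values. With the number as a block, 5858, 5708 and 2227 genes passed in the 3 contrasts. The same block fit passed 37, 31 and 19 of the 45 other genes. The unknown depth limits Alpl most.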
